A study of Rattus norvegicus with 9 samples.

Results

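The genes described here are 9 established targets of the transcription factor Nrf2: Nqo1, Hmox1, Gclc, Gclm, Txnrd1, Srxn1, Slc7a11, Gpx2 and Akr1b8. They were taken by symbol from probe sets annotated to exactly 1 gene, which gave 13 probe sets of the 31099 on the array. Where a gene had several, the brightest one on average over the 9 arrays stood for it, so that the 9 genes stand among 14217. Genes with a mean log2 intensity of at least 5 over the 9 arrays were tested. Of 10337 such genes, 8 were Nrf2 targets, and Slc7a11 was the one below that minimum.

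RNA came from whole right kidneys of Sprague-Dawley rats, an outbred stock, bought at 8 weeks of age and acclimated for 1 week. The rats received daily intraperitoneal injections for 7 days of vehicle (0 mg/kg) or of 25 or 50 mg/kg colistin methanesulfonate sodium (CMS), from which the antibiotic colistin, a polymyxin, is released in the body. The groups, called vehicle, CMS25 and CMS50 here, had 3 rats and 3 arrays each, and no genetic change is given for any of them. By the labels, vehicle kidneys had no lesion, CMS25 kidneys had basophilic and dilated tubules, and CMS50 kidneys had necrosis, degenerating tubules and casts. A whole kidney mixes all nephron segments with vessels and infiltrating cells. In such bulk RNA, fewer cells of a type and less RNA per cell cannot be told apart. The sex of the rats is not given in the sources used here.

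Nrf2, encoded by Nfe2l2, is held low in resting cells by Keap1, which presents it to a Cul3 ubiquitin ligase for destruction. Oxidants and electrophiles modify cysteines of Keap1, Nrf2 escapes, and it binds with small Maf proteins to antioxidant response elements in the promoters and enhancers of its targets. These targets make glutathione, reduce thioredoxin and peroxides, clear quinones and aldehydes and break down haem. In the kidney, the proximal tubule takes up many drugs, polymyxins among them, and is rich in glutathione.

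The 9 genes did not move as 1 block. In CMS50 kidneys, Gpx2, a glutathione peroxidase, was 11.4-fold above vehicle, Akr1b8, an aldo-keto reductase, was 9.81-fold above it, and Hmox1, the inducible haem oxygenase, was 2.44-fold above it. The folds of Akr1b8 and Hmox1 are approximate, since their vehicle means were under the intensity minimum. Gclc and Gclm, the subunits of the enzyme that limits glutathione synthesis, were each lower, by 2.21-fold and 2.22-fold at the probe sets used. A dimmer Gclc probe set fell more, with a log2 change of -2.13. Nqo1 and Txnrd1, a quinone reductase and the cytosolic thioredoxin reductase, had no call. Their 95% intervals in the fit of all arrays lay within 0.46 of the vehicle mean on the log2 scale. Without vehicle replicate 3, the lowest array for Nqo1, its change was -0.28 (SE 0.11). At CMS25, none of the 8 tested genes was called.

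In numbers, 3 of 8 rose and 2 fell at CMS50 against vehicle (limma, adjusted p under 0.05 over all genes). Over all 10337 genes, 31.1% were called, 19.6% higher and 11.4% lower. At an unadjusted p under 0.05 there were 6 of 8, against 43.4% of all genes, and the CMS50 and vehicle arrays did not overlap for 5 of 8, against 49.6%. Hmox1 and Akr1b8 passed the intensity minimum only through their CMS50 arrays, so their presence among the tested genes is tied to their rise, and the share called among the 8 supports nothing. The median change, 0.27 over the 8 genes and 0.05 over all genes, has the same limit. Changes below are differences of log2 intensity with the SE (standard error), group values are mean log2 intensities ± SD with n = 3, and the number of arrays limits their precision.

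The arrays of a group correlated between 0.977 and 0.989. CMS50 replicate 3 stood apart from the other CMS50 arrays. Over 807 genes called with a change of at least 1 when it was left out, its median change was 0.565 of that of the other CMS50 arrays, a measure chosen after the data were seen. The same measure was 1.10 for CMS50 replicate 1 (428 genes) and 1.28 for CMS50 replicate 2 (394 genes), each over genes chosen without that array. A quality reading was also higher at CMS50: for beta-actin, the control probe set at the 3′ end exceeded that at the 5′ end on the log2 scale by 2.98 ± 0.155 in vehicle, 3.17 ± 0.120 in CMS25 and 3.58 ± 0.0854 in CMS50 (n = 3 each). For GAPDH it was 0.542 ± 0.0286, 0.698 ± 0.209 and 0.816 ± 0.0622. Comparing CMS50 with vehicle, an exact permutation test (two-sided) gave p = 0.1 for both, which is the lowest p possible with 3 arrays a group. Its part in the changes at CMS50 was not tested.

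Antioxidant response elements were looked for in the 250 bases before the transcription start of each gene, in RefSeq promoter windows of the GRCr8 assembly, which held 8 of the 9 genes. Hmox1 was not among them. The core TGACNNNGC was searched on both strands, where the reverse strand reads GCNNNGTCA, and no other motif was searched. Gclm, Txnrd1 and Gpx2 each had 1 match, the Txnrd1 match at 1 of its 2 listed starts. Of all 33469 windows of this length, 10.1% held the core. These 3 promoters are shown because they held the core. Their genes fell, had no call and rose, respectively, at CMS50. Letters run 5′ to 3′ along the gene, and capitals mark the core, which lies on the opposite strand in each.
Gclm, chr2:213031885-213032134 on the plus strand: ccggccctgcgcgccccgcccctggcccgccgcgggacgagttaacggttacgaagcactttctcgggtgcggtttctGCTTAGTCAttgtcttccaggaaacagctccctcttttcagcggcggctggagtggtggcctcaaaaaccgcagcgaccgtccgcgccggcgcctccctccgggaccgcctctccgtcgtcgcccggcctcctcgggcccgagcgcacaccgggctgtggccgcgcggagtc
Txnrd1, chr7:22755905-22756154 on the minus strand: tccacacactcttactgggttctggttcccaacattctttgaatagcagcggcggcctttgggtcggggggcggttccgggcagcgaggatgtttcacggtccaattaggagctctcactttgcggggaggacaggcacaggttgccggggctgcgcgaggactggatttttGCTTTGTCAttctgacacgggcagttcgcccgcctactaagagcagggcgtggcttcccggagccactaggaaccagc
Gpx2, chr6:101230034-101230283 on the minus strand: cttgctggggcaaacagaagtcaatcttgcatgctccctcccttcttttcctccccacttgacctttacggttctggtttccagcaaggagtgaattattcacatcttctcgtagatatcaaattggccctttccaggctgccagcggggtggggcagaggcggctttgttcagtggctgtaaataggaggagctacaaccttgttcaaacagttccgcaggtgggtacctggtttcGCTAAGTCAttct
Read on its own strand, the core was TGACTAAGC in Gclm, TGACAAAGC in Txnrd1 and TGACTTAGC in Gpx2. Relative to the start, where -1 is the base just before it, the core spanned -172 to -164 in Gclm, -78 to -70 in Txnrd1 and -13 to -5 in Gpx2. A match is a string of letters, not a measured binding site. The windows of Nqo1, Gclc, Srxn1, Slc7a11 and Akr1b8 did not hold these letters.

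**Figure D1:**
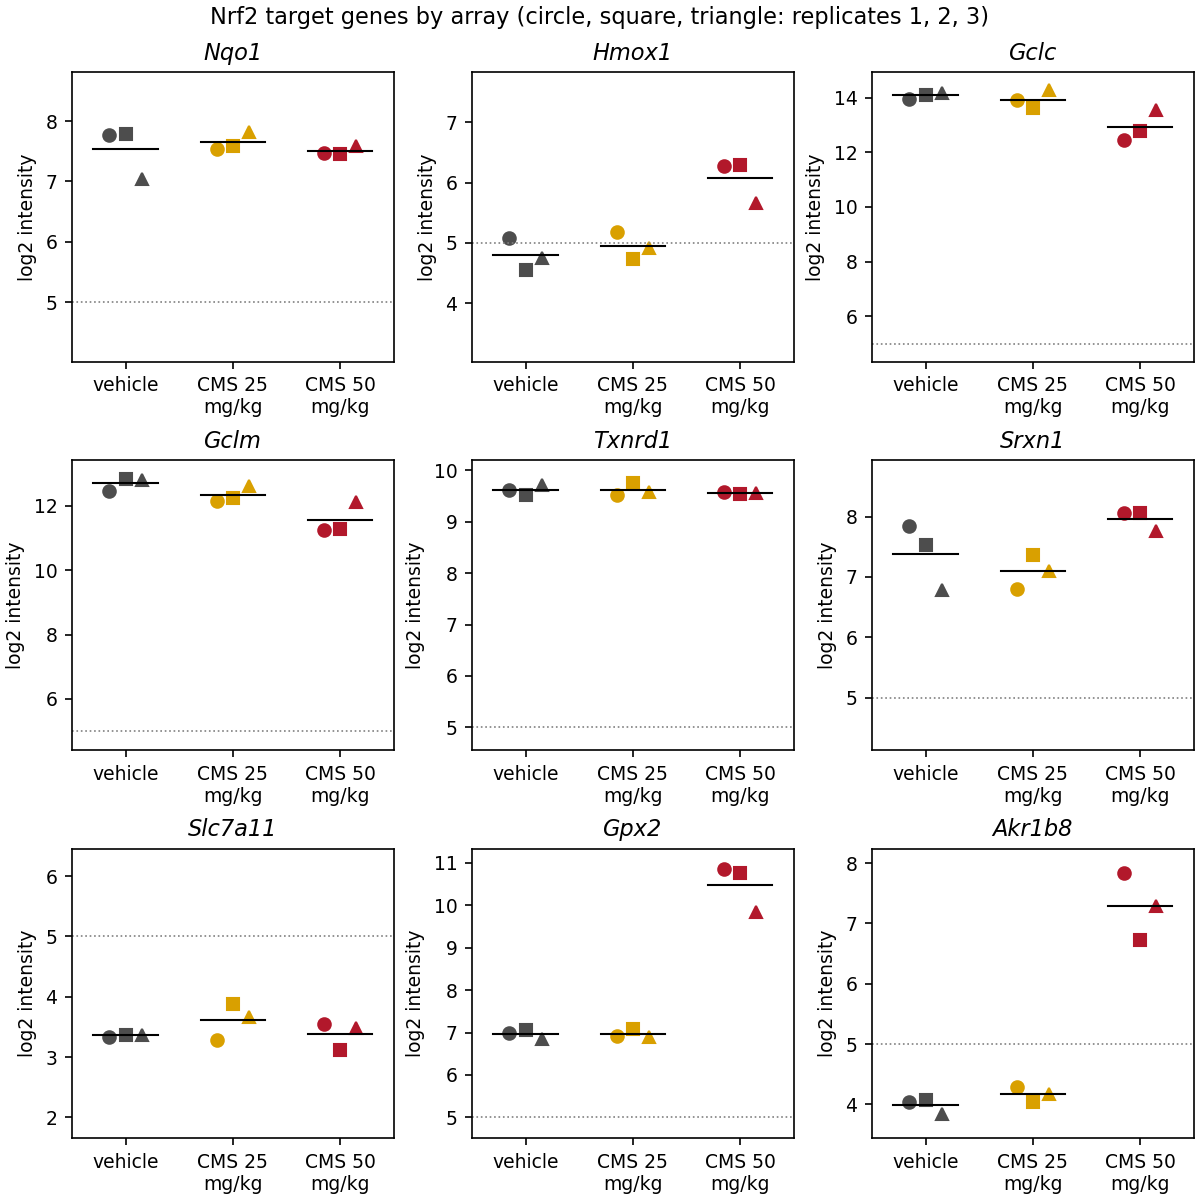
Log2 intensity (vertical axes, each panel on its own range) of the 9 genes on each array by dose group, with circles, squares and triangles for replicates 1, 2 and 3, a bar at the group mean and a dotted line at the intensity minimum of 5. Gpx2 and Akr1b8 are higher on every CMS50 array than on any other array, Gclc and Gclm are lower on every CMS50 array, and Slc7a11 stays below the line on all arrays.

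The genes of glutathione synthesis are described first. Gclc (glutamate-cysteine ligase, catalytic subunit, probe set 1372523_at) was at 13.96, 14.08 and 14.18 in vehicle, 13.90, 13.62 and 14.26 in CMS25 and 12.46, 12.77 and 13.55 in CMS50. Every CMS50 array lay below every other array, and CMS50 replicate 3 was the nearest to them. The mean went from 14.08 ± 0.11 in vehicle to 12.93 ± 0.56 in CMS50 (log2 change -1.15, SE 0.26, limma adjusted p = 0.0116). The other Gclc probe set, 1370688_at, read 12.64, 13.05 and 12.86 in vehicle, 12.73, 12.16 and 13.00 in CMS25 and 9.97, 10.51 and 11.67 in CMS50. Its arrays had the same order within CMS50, and in a fit over all probe sets its change was larger, at -2.13 (SE 0.37, limma adjusted p = 0.00549). Both probe sets fell, by different amounts. The first probe set reads near the top of the scale, where the highest value of any probe set was 14.8.

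Gclm encodes the modifier subunit, which raises the catalytic efficiency of Gclc. It was at 12.48, 12.83 and 12.80 in vehicle, 12.16, 12.26 and 12.62 in CMS25 and 11.25, 11.28 and 12.13 in CMS50. CMS50 replicates 1 and 2 lay close together at the bottom, and replicate 3 lay just under the lowest CMS25 array. The change at CMS50 was -1.15 (SE 0.23, 95% interval -1.67 to -0.62, limma adjusted p = 0.00788). Without CMS50 replicate 3 the changes of Gclc and Gclm were -1.46 and -1.44. With each of the 9 arrays left out in turn both falls kept their calls, with Gclc between -1.46 and -0.91 and Gclm between -1.44 and -0.998.

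Slc7a11 is the cystine carrier of the cystine-glutamate exchanger, which brings in the cysteine that Gclc uses. Its only probe set was dim on all arrays, at 3.33 to 3.37 in vehicle, 3.29 to 3.88 in CMS25 and 3.11 to 3.55 in CMS50, and it was left out of the main test. In the fit over all probe sets its change at CMS50 was 0.02 (95% interval -0.33 to 0.38, limma adjusted p = 0.947). Gss, which adds glycine in the second step of glutathione synthesis, had a change of -0.80 that missed the threshold (SE 0.27, limma adjusted p = 0.0529). Gsr, which regenerates reduced glutathione, fell by 0.68 (SE 0.14, limma adjusted p = 0.00745).

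Gpx2 and Akr1b8 had the largest rises of the 8 genes. Gpx2, a selenoprotein best known from the lining of the gut, was at 6.99, 7.05 and 6.86 in vehicle and 6.92, 7.08 and 6.89 in CMS25. In CMS50 it was at 10.85, 10.77 and 9.83. The vehicle and CMS25 arrays shared 1 range, whereas the lowest CMS50 array lay well above them all. The log2 change was 3.52 (SE 0.23, limma adjusted p = 0.000389), which placed Gpx2 at rank 6 among all 10337 genes ordered by their change from the highest. CMS50 replicate 3 had 0.746 of the change of the other CMS50 arrays, and the change was 3.84 without it. The other glutathione peroxidases measured did not pass the test, with Gpx1 at 0.05, Gpx3 at -0.14 and Gpx4 at 0.07. These 3, like Gss, Gsr, Blvra, Akr1b7 and Akr1b10, are named for their relation to a member and were chosen after their values were seen.

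Akr1b8 reduces reactive aldehydes with NADPH. It was at 4.04, 4.07 and 3.85 in vehicle, 4.28, 4.05 and 4.17 in CMS25 and 7.83, 6.72 and 7.29 in CMS50. Vehicle and CMS25 values lie under the intensity minimum, so the signal there is dim and the fold is approximate. Its change was 3.29 (SE 0.23, limma adjusted p = 0.000389). CMS50 replicate 3 was not the lowest CMS50 array for this gene, and its change was 1.00 times that of the other CMS50 arrays, against 0.582 for Hmox1 and 0.746 for Gpx2. Leaving out a CMS50 array took the mean of Akr1b8 under the minimum. With the tested genes kept as they were, its change ran from 3.02 without CMS50 replicate 1 to 3.58 without CMS50 replicate 2, and its call held.

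Akr1b8 belongs to a family of closely related genes, so which member its probe set reads is uncertain. Of these, Akr1b7 was dim, with group means from 2.83 to 2.99. Akr1b10 had a change of -0.88 that missed the threshold (SE 0.64, limma adjusted p = 0.320). Akr1b1, the aldose reductase, was 0.85 higher (SE 0.27, limma adjusted p = 0.0411), and that call was lost when any of 6 arrays was left out, namely vehicle replicates 1, 2 and 3, CMS25 replicate 2 and CMS50 replicates 1 and 2. Neither Akr1b1 nor Akr1b10 reached the change of Akr1b8.

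Hmox1 opens the haem ring and releases biliverdin, iron and carbon monoxide. It was at 5.07, 4.56 and 4.74 in vehicle, 5.19, 4.74 and 4.91 in CMS25 and 6.28, 6.30 and 5.66 in CMS50. The groups at the lower doses overlapped each other, and all CMS50 arrays lay above them. The change was 1.29 (SE 0.20, limma adjusted p = 0.00333), with group means of 4.79 ± 0.26 in vehicle and 6.08 ± 0.36 in CMS50. The vehicle and CMS25 means lie under the intensity minimum, so the size of this change is approximate, as for Akr1b8. It was 1.495 without CMS50 replicate 3. The constitutive haem oxygenase Hmox2 moved the other way and fell by 0.54 (SE 0.083, limma adjusted p = 0.00327). Blvra, the biliverdin reductase that follows haem oxygenase, had a change of -1.09 that missed the threshold (SE 0.44, limma adjusted p = 0.0876).

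**Figure D2:**
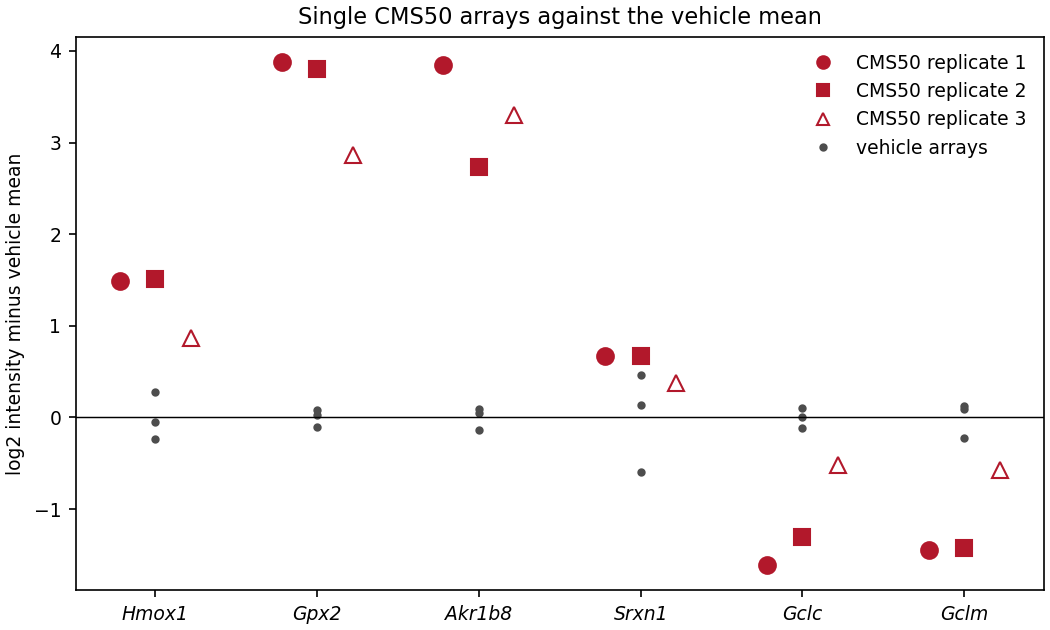
Log2 intensity of each CMS50 array minus the vehicle mean of the same gene (vertical axis), for the 5 genes called at CMS50 and Srxn1, with vehicle arrays as small dots. CMS50 replicate 3, the open triangle, is the nearest to vehicle for Hmox1, Gpx2, Srxn1, Gclc and Gclm, but not for Akr1b8.

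The remaining members had no call against vehicle at CMS50. Srxn1, sulfiredoxin, repairs overoxidised peroxiredoxins. Its brightest probe set, 1372510_at, was at 7.84, 7.53 and 6.79 in vehicle, 6.80, 7.37 and 7.10 in CMS25 and 8.06, 8.06 and 7.77 in CMS50. Vehicle replicate 3 was the lowest array of all, and the vehicle and CMS50 ranges overlapped. The change was 0.58 (SE 0.25, 95% interval 0.01 to 1.14, limma adjusted p = 0.109, from 0.0465 to 0.309 over the alternatives). It was called only without vehicle replicate 1, at 0.81 (adjusted p = 0.0465). The other Srxn1 probe sets were dim, with means of 4.26 and 3.35, and had changes of 0.05 and 0.08.

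Nqo1, the NAD(P)H quinone reductase that is widely read as a marker of Nrf2 activity, was at 7.77, 7.79 and 7.03 in vehicle, 7.53, 7.58 and 7.82 in CMS25 and 7.46, 7.45 and 7.59 in CMS50. Vehicle replicate 3 was again the lowest array, and the CMS50 arrays lay inside the vehicle range. The change was -0.03 (SE 0.19, 95% interval -0.46 to 0.40, limma adjusted p = 0.916), and leaving out vehicle arrays moved it to 0.09 (replicate 1), 0.10 (replicate 2) and -0.28 (replicate 3). The related quinone reductase Nqo2 fell by 0.99 (SE 0.19, limma adjusted p = 0.00638).

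Txnrd1, the selenoenzyme that reduces thioredoxin in the cytosol, was the steadiest member. Its brighter probe set, 1398791_at, stayed between 9.51 and 9.75 on all 9 arrays. The change at CMS50 was -0.05 (SE 0.09, 95% interval -0.26 to 0.15, limma adjusted p = 0.689). The other probe set, 1386958_at, read 7.24, 7.22 and 7.21 in vehicle and 6.88, 7.07 and 7.04 in CMS50. Those ranges did not overlap, and its change of -0.23 was small and missed the threshold in the fit over all probe sets (SE 0.09, adjusted p = 0.117).

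**Figure D3:**
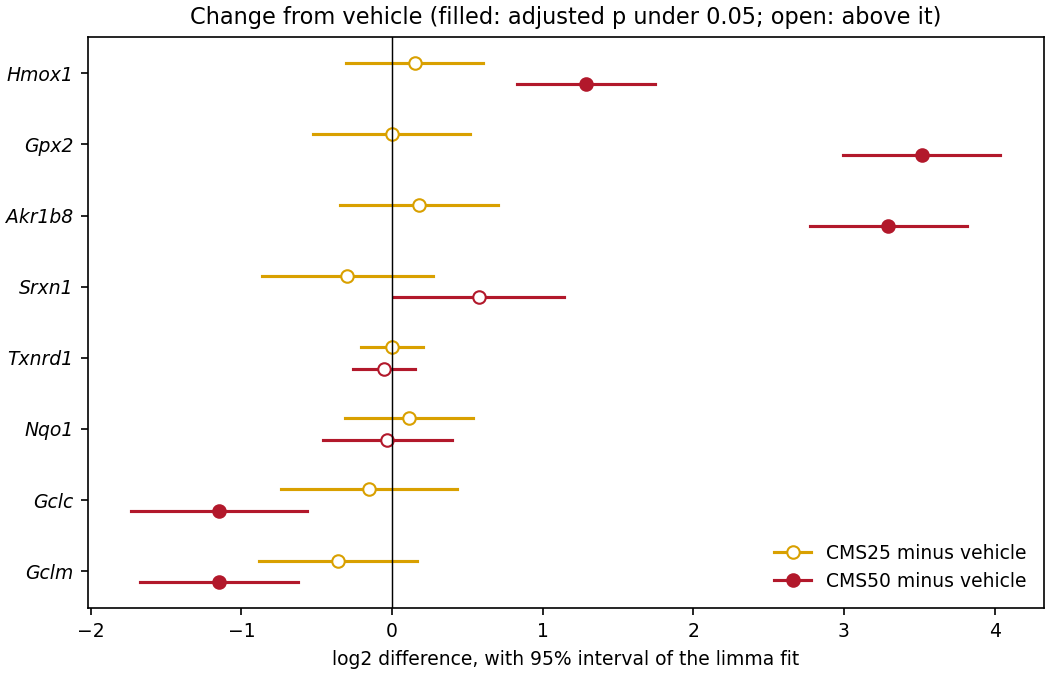
Log2 difference from vehicle (horizontal axis) of the 8 tested genes at CMS25 and CMS50, with 95% intervals of the limma fit, filled where the adjusted p was under 0.05. All CMS25 intervals include 0, whereas at CMS50 those of Hmox1, Gpx2, Akr1b8, Gclc, Gclm and, narrowly, Srxn1 do not, and Srxn1 is open because its adjusted p was 0.109.

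The lower dose was compared with vehicle to ask whether any of these genes moved where lesions were milder. None of the 8 was called, and 0 of all 10337 genes were (0%). At an unadjusted p under 0.05, limma gave 604 genes (5.84%) and 0 of the 8. The CMS25 and vehicle arrays overlapped for all 8, and did not for 12.1% of all genes. Changes ran from -0.36 for Gclm (95% interval -0.88 to 0.17) to 0.18 for Akr1b8 (-0.34 to 0.70). Gpx2 was at 6.97 ± 0.10 in vehicle and 6.96 ± 0.10 in CMS25, with a difference between -0.52 and 0.52 by its 95% interval. These intervals leave room for changes of that size at CMS25. The vehicle arrays also serve the CMS50 comparison, so the comparisons are not independent.

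Between the doses, 6 of the 8 genes were called in CMS50 against CMS25, 4 higher and 2 lower, where 30.3% of all genes were called, 20.8% higher and 9.43% lower. Gpx2 was 3.52 higher (SE 0.23, adjusted p = 0.000261), Akr1b8 3.11 higher (SE 0.23, adjusted p = 0.000397) and Hmox1 1.14 higher (SE 0.20, adjusted p = 0.00504). Srxn1 joined them, at 0.87 (SE 0.25, adjusted p = 0.0292), with no overlap between the CMS50 and CMS25 arrays. Those arrays did not overlap for 6 of 8 genes, against 45.7% of all genes, and 6 of 8 had an unadjusted p under 0.05, against 44.6%. Hmox1 and Akr1b8 passed the intensity minimum only through their CMS50 arrays, so the shares among the 8 support nothing here either. Gclc and Gclm were lower, at changes of -0.996 and -0.79 (SE 0.26 and 0.23, adjusted p = 0.0204 and 0.0315). All of these come from limma. The calls of Srxn1, Gclc and Gclm were each lost without CMS25 replicate 3, CMS50 replicate 1 or CMS50 replicate 2, which left 3, 2 and 2 of the genes called. In the last 2 of these fits Akr1b8 was not tested, and with the tested genes kept it was called, giving 3 and 3. The call of Srxn1 was also lost without CMS25 replicate 1 and that of Gclm without CMS25 replicate 2.

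Regulators of the pathway had 1 call at CMS50 against vehicle. Of 18 listed genes, 14 were named on the array and 12 tested, with 1 rise and 0 falls and a median change of 0.09. Over all genes, 19.6% were higher and 11.4% lower in that comparison. Nfe2l2 itself had a change of 0.15 (95% interval -0.11 to 0.41) and Keap1 of 0.0064 (-0.19 to 0.20). Nrf2 is controlled mainly through the stability of its protein, which arrays do not read. Mafg, a small Maf partner of Nrf2, was the one gene that rose, by 0.46 (SE 0.10, limma adjusted p = 0.0116). Against CMS25, 2 of the 12 were higher at CMS50 and 0 lower, where 20.8% of all genes were higher. These were Mafg, by 0.40, and Cand1, by 0.30 (SE 0.10 and 0.078, limma adjusted p = 0.0203 and 0.0197). Sqstm1, the autophagy receptor p62 that binds Keap1 and is itself a target, had a change of 0.34 that did not pass the test (SE 0.12, limma adjusted p = 0.0616). Cul3 and Mafk had changes of -0.18 and 0.20 that missed it as well. Bach1, a repressor of Hmox1, was dim, with group means from 3.97 to 4.28.

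Other genes reported elsewhere as Nrf2 targets, many of them in mouse or human cells, moved in both directions as well. Of 92 listed genes, 82 were named on the array and 73 tested, and 9 rose and 19 fell at CMS50 against vehicle, where 19.6% of all genes were higher and 11.4% lower. Their median change was -0.10, against 0.05 over all genes. With 1 array left out at a time, the count of rises ran from 3 to 10 and that of falls from 11 to 22. It was 3 rises and 11 falls without CMS50 replicate 1, 3 and 13 without CMS50 replicate 2 and 4 and 12 without vehicle replicate 2. Of the 28 called genes, 13 kept their call in all 9 leave-outs, 3 of them rises and 10 falls. At CMS25, 0 of the 73 were called. The lists below are parts of these 73 genes, to be read beside the same shares of all genes.

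Glutathione transferases, which join glutathione to electrophiles, went in both directions. Among 19 tested genes of glutathione use and conjugation, 3 rose and 6 fell. Gsta1 fell by 2.02 (SE 0.26, limma adjusted p = 0.00223), Gsta3 by 1.57 (SE 0.29) and Gstm2 by 0.73 (SE 0.13). Gstm5 rose by 0.90 (SE 0.12, limma adjusted p = 0.00223). These kept their calls with any array left out. Gstm1 (1.20) and Gstp1 (-1.06) were called too, but each call was lost without vehicle replicate 2 or 3 or CMS50 replicate 1 or 2. Transferases of a class are alike in sequence, so which member a probe set reads is uncertain. Glrx, a glutaredoxin, was 0.88 higher, a call lost without vehicle replicate 2, CMS50 replicate 1 or CMS50 replicate 2.

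Thioredoxin and peroxiredoxin genes had 0 rises and 2 falls among 7. Prdx6, a peroxiredoxin, changed by -0.50 and the mitochondrial thioredoxin Txn2 by -0.46. Both calls were lost without vehicle replicate 2 or CMS50 replicate 1, and that of Txn2 also without vehicle replicate 3 or CMS50 replicate 2. Of 5 tested genes that supply NADPH, Me1, the cytosolic malic enzyme, fell by 1.76 (SE 0.31, limma adjusted p = 0.00488). Pgd, of the pentose phosphate pathway, was 0.56 higher, a call lost without vehicle replicate 1, CMS50 replicate 1 or CMS50 replicate 2. Hmox2 was the 1 called gene among 6 of haem and iron.

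Enzymes of carbonyl, quinone and drug metabolism had 1 rise and 6 falls among 18 tested. Akr7a3, an aflatoxin aldehyde reductase, fell by 1.62 (SE 0.24, limma adjusted p = 0.00294) and Ces1d, a carboxylesterase, by 1.53 (SE 0.28, limma adjusted p = 0.00520), and both kept their calls with any array left out, as did Nqo2. Entpd5 changed by -0.84, a call lost without vehicle replicate 2, CMS50 replicate 1 or CMS50 replicate 2. Akr1b1, described above, was the rise. Of 7 tested efflux transporters, 3 rose, 0 fell and 4 had no call. Abcc3, which exports glucuronides and bile salts across the basolateral membrane, rose by 0.76 (SE 0.14, limma adjusted p = 0.00506) and kept its call with any array left out. Abcc2 and Abcc5 were 0.71 and 0.54 higher, with calls lost without vehicle replicate 2, CMS50 replicate 1 or CMS50 replicate 2. Among 11 genes of other roles, 1 rose and 3 fell. Abhd4, a lipase of N-acyl phospholipids, rose by 0.65 (SE 0.091, limma adjusted p = 0.00251). Ppard fell by 0.52 and Esd by 0.40 (SE 0.12 and 0.10, limma adjusted p = 0.0131 and 0.0173). The call of Ppard was lost only without CMS50 replicate 2, and that of Esd without vehicle replicate 1 or 2 or CMS50 replicate 1 or 2. Osgin1 changed by -1.57 (SE 0.49, limma adjusted p = 0.0393), and that call was lost in 6 of 9 leave-outs, with a change between -2.22 and -1.18.

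**Figure D4:**
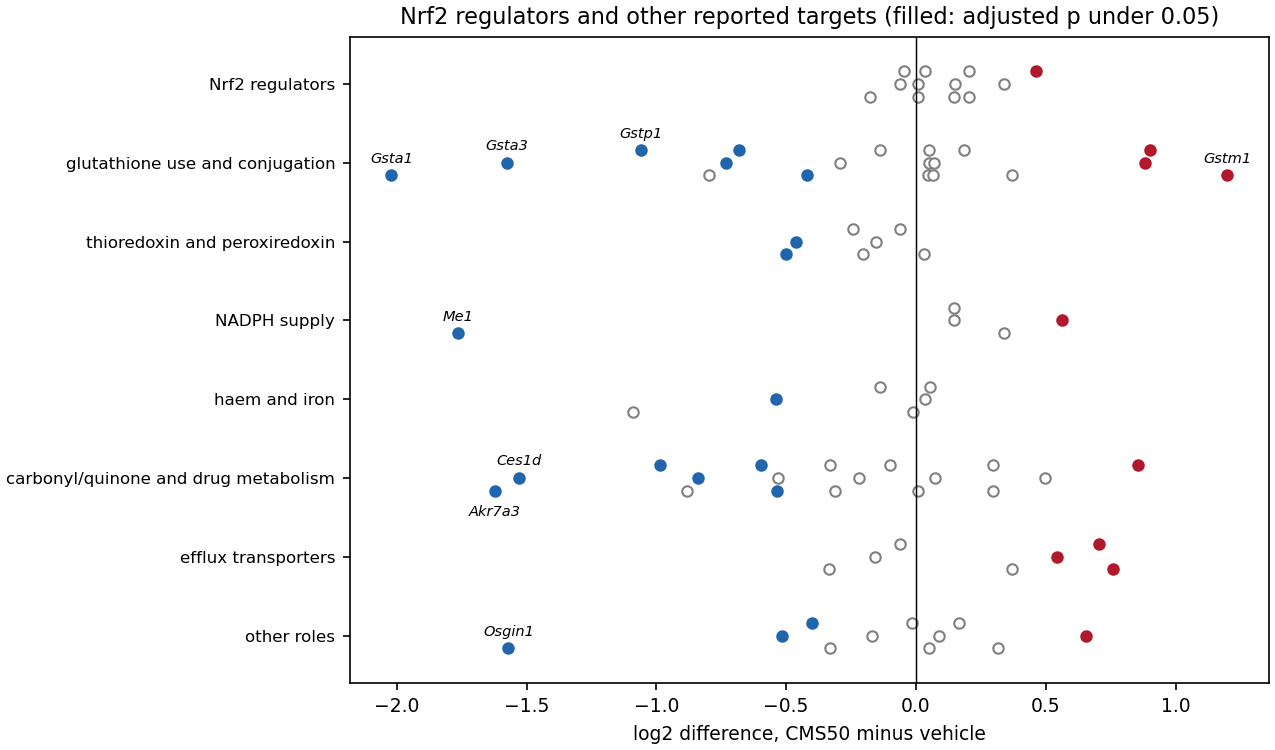
Log2 difference between CMS50 and vehicle (horizontal axis) of each tested gene in the list of Nrf2 regulators and in 7 lists of other reported targets, red or blue where the adjusted p was under 0.05 and open otherwise; points are spread vertically only to separate them. The 3 called efflux transporters lie to the right of 0 and 4 have no call, and 6 of the 7 calls in carbonyl, quinone and drug metabolism lie to the left.

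Genes with the most similar array profile were ranked by the root mean square difference of log2 values over the 9 arrays, each taken from its own vehicle mean. For Gpx2 the nearest were Gpnmb, at a difference of 0.147, Adamts1 at 0.223 and Timp1 at 0.314. Akr1b8 had no match as close, since its nearest genes were Adamts1 at 0.401, Gpx2 at 0.413 and Gpnmb at 0.481. Hmox1 lay nearest to Slc7a9 (0.131), Enc1 (0.138) and Ier5l (0.140). The nearest profiles to Gclc were Hagh (0.132), Mccc1 (0.140) and Iyd (0.141), and to Gclm Tlcd4 (0.124), Tmem33 (0.132) and Agt (0.138). These are descriptions over 9 arrays and carry no test.

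Markers of tissue injury and of other cells moved with the same arrays. The counts below stand beside 19.6% of all genes higher and 11.4% lower at CMS50 against vehicle. Of 16 tested tubular injury markers, 11 rose and 0 fell at CMS50, and the summed intensity of the list, over 17 genes, was 7233 to 9925 in vehicle, 6730 to 9376 in CMS25 and 32760 to 52579 in CMS50. Havcr1, the kidney injury molecule, rose by 6.32 (SE 0.46, limma adjusted p = 0.000389). Of 12 tested macrophage markers, 11 rose and 0 fell, and their summed intensity, over 15 genes, was 3411 to 3578 in vehicle, 2779 to 4219 in CMS25 and 8225 to 13670 in CMS50. Macrophages, like tubule cells, can express Hmox1. Among the defining macrophage markers Cd68 rose by 1.23 and Mrc1 by 2.74, while the group means of Cd163 were all under the minimum. All 5 neutrophil markers were under it too. Of 8 markers of T and B cells, 7 had a mean over the 9 arrays under it, and the other, Cd3e, rose by 0.68 (SE 0.17, limma adjusted p = 0.0157). The sum over these 8 was 167 to 179 in vehicle, 177 to 199 in CMS25 and 201 to 232 in CMS50. Havcr1, Mrc1 and Cd3e had vehicle and CMS25 means under the minimum and passed it only through their CMS50 arrays. Their presence among the tested markers is thus tied to their rise, and the sizes of their changes are approximate.

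The summed red cell list, 4 genes with the globins Hbb and Hba-a3, was 8947 to 10688 in vehicle, 8908 to 18604 in CMS25 and 665 to 3070 in CMS50, and all 4 genes fell. Of the 4, Slc4a1 is also a gene of intercalated cells. Proximal tubule markers, which were all present and mark the tissue as kidney, had 1 rise and 5 falls among 12, with sums of 82317 to 90151 in vehicle, 79507 to 92619 in CMS25 and 68029 to 81669 in CMS50. Falls ran from 2 to 5 with 1 array left out, the fewest without CMS50 replicate 1 or 2. Podocyte genes had 0 rises and 2 falls among 4, endothelial genes 0 and 1 among 4, genes of the loop, distal tubule and collecting duct 0 and 4 among 8, and adipocyte genes 0 and 1 among 3. Over all genes, 19.6% were higher and 11.4% lower. The lists are short, and these counts do not measure cell content. The part of cell content in the changes of Gpx2, Akr1b8, Hmox1, Gclc and Gclm was not tested.

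**Figure D5:**
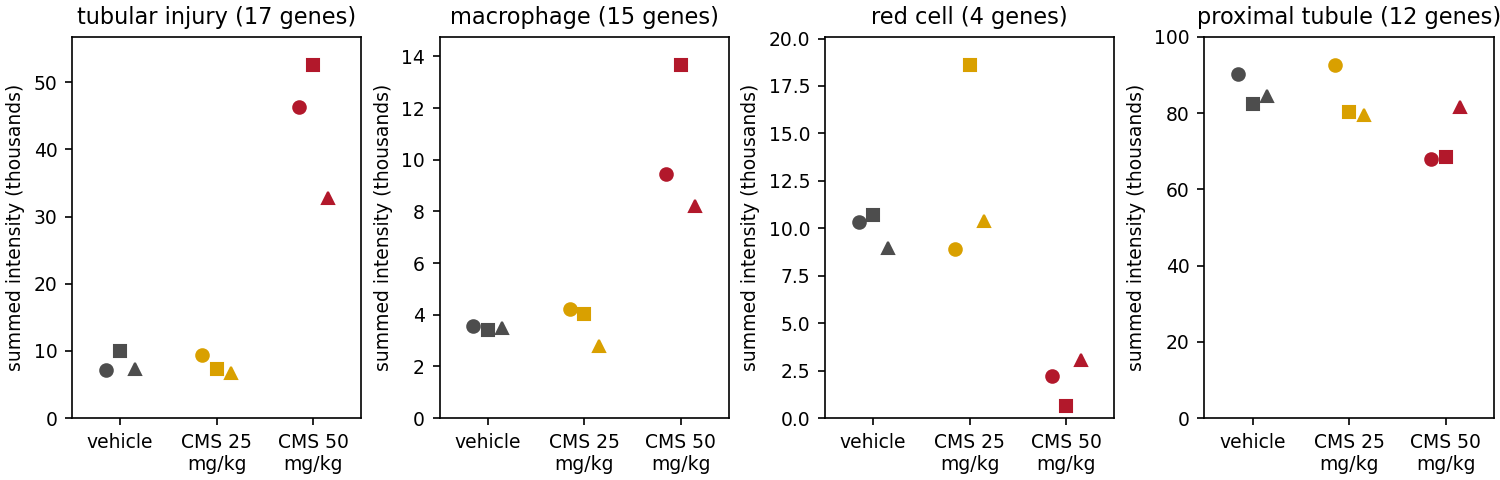
Summed intensity (linear scale from 0, in the units on the axis) of the marker lists for tubular injury, macrophages, red cells and the proximal tubule on each array, with circles, squares and triangles for replicates 1, 2 and 3. The CMS50 arrays lie above all others for injury and macrophages and below all others for red cells, and CMS50 replicate 3 lies inside the vehicle and CMS25 range for the proximal tubule.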

How the data were processed

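The values deposited by the authors are log2 intensities of 31099 probe sets on 9 Affymetrix rat arrays, made with RMA in Affymetrix Expression Console, per the submitters' processing notes (their versions are not stated there). RMA corrects background, equalises array distributions by quantiles and summarises probes, so a shift of all genes cannot be seen and dim changes are compressed. Values were not normalised again. Probe sets were named from the supplied platform annotation. All 9 members had a gene identifier in the current RefSeq table (GRCr8), and 0 of their symbols differed. The highest-mean probe set stood for each gene, and a mean log2 value of at least 5 was required. A single model of the 9 arrays was fitted with lmFit and eBayes of limma 3.58.1 (R 4.3.3), with Benjamini-Hochberg adjustment over 10337 genes and a threshold of 0.05. The fit was tested on simulated data, with normal noise and 1 spread per gene for all groups. Among 10337 genes, 67 were changed by 0.5, 67 by 1 and 66 by 2. In the data, 31.1% of genes were called in CMS50 against vehicle and spreads differed between groups. The shares below therefore describe the simulation and need not hold for the data. Of simulated log2 changes of 0.5, 41.8% were called in CMS50 against vehicle, 38.8% in CMS25 against vehicle and 55.2% in CMS50 against CMS25. For changes of 1 these shares were 89.6%, 91.0% and 80.6%, so small changes are often missed. RNA quality readings were compared by an exact permutation test. The members and gene lists were chosen with earlier results of these data known. Named genes were all members, the regulators, up to 4 called genes per direction of each pathway list, up to 3 called or defining markers per marker list and the 3 nearest profiles of each called member. Alternatives changed scaling, minimum, probe set rule, variance model, array weights, arrays fitted and replicate block. No batch is labelled. Figures used matplotlib 3.10.9 under Python 3.11.15.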

Additional observations from a re-analysis of the deposited data

How the results depend on the processing

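Over the alternatives, 476 of 513 member changes kept their direction and side of the threshold, 19 lost a call, 1 gained one and 17 changed sign, all of the last among changes that were not called. At CMS50 against vehicle the 5 calls held in each alternative that tested those genes. A minimum of 6 removed Hmox1 and Akr1b8 and left 3. With 1 array left out, 4 to 6 members and 1633 to 3546 of all genes were called, against 5 and 3211. The gene counts were 1847 when vehicle replicate 2 was left out, 1677 and 1633 for CMS50 replicates 1 and 2, and 3522 for CMS50 replicate 3. With the tested genes kept, an alternative added after seeing the data, CMS50 replicates 1 and 2 gave 1711 and 1687. For CMS50 against CMS25, leave-outs gave 2 to 6 members and 1522 to 3518 genes, against 6 and 3128, with 2006 genes when CMS25 replicate 3 was left out, 1702 and 1522 for CMS50 replicates 1 and 2, and 3506 for CMS50 replicate 3. With the tested genes kept, CMS50 replicates 1 and 2 gave 1737 and 1569 genes and 3 members each. Averaging probe sets moved Srxn1 to 0.22 and ended its call, and fitting only the compared groups ended that of Gclm (-0.79, adjusted p = 0.0624). The causes were not tested. CMS25 against vehicle gave 0 calls throughout, with 424 to 869 genes at an unadjusted p under 0.05 where 1 value per gene was tested.

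Only changes that were not called turned sign. For CMS25 against vehicle, Gpx2 was at 0.0458 after cyclic loess, Txnrd1 at -0.00927 with centred arrays, -0.00925 with array weights and -0.000802 with averaged probe sets, and Srxn1, otherwise -0.30, at 0.0136 with averaged probe sets. Leave-outs ran from -0.136 to 0.243 for Nqo1 (0.11 with all arrays), -0.319 to 0.0031 for Gclc, -0.0682 to 0.0536 for Txnrd1 and -0.0613 to 0.0400 for Gpx2. For Nqo1 at CMS50 against vehicle they ran from -0.280 to 0.0987, and for Txnrd1 at CMS50 against CMS25 from -0.107 to 0.0149.

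The labels give the groups the same replicate numbers, but nothing ties them to shared animals or days, and same-numbered arrays deviated together by correlations from -0.183 to 0.263. With the replicate number as a block, 5, 0 and 6 members and 2865, 0 and 2857 genes were called in CMS50 against vehicle, CMS25 against vehicle and CMS50 against CMS25, so the block changed no member's call.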
